A study of Mus musculus with 6 samples.

Results

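Collagens, laminins and integrins are the genes of the matrix around the cell and of the receptors that hold the cell to it. They were chosen by name, as all genes of the table named as a collagen chain, a laminin chain or an integrin alpha or beta subunit, which gave 74 of 25996 genes: 41 collagens, 11 laminins and 22 integrins. 3 collagens (Col10a1, Col13a1 and Col1a2) had a mean under 1 and were not tested, which left 71 members. The libraries came from mouse neural stem cells kept under proliferation conditions, 3 with a control hairpin (shControl, genotype given as WT) and 3 with a hairpin against Mina53 (shMina53, genotype given as Mina53 knockdown), a nuclear JmjC oxygenase with the gene symbol Riox2. Age, strain, the region the cells came from, the number of hairpins and whether replicates were separate cultures are not given in the sources used here, so p-values measure the spread between these libraries, which may be technical. The groups were compared for what the loss of Mina53 does to these cells.

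Collagens are built from 3 chains wound into a triple helix and form fibrils, sheets or fine filaments. Laminins are trimers of an alpha, a beta and a gamma chain, and together with type IV collagen they form the basement membrane, the thin sheet that neural stem cells contact at blood vessels and at the brain surface. Integrins are pairs of an alpha and a beta subunit in the cell membrane. They bind collagens, laminins, fibronectin, vitronectin or latent TGF-beta outside the cell and link them to the actin skeleton inside it, and laminin-binding integrins are known as markers of neural stem cells.

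Values are scaled counts, the read count of a gene divided by 1 factor per library. Group values are means ± SD over n = 3 libraries, a positive fold change means higher in shMina53 and is on the log2(scaled count + 1) scale, with its standard error (SE), and adjusted p-values come from limma over 21500 genes, with a gene "called" at an adjusted p under 0.05. In bulk RNA, fewer cells of a type and less RNA per cell cannot be told apart, and without a rescue library an effect of the hairpin itself cannot be told apart from loss of Mina53. The libraries held 13753857 to 16811085 reads. Riox2 had 290.4, 333 and 307 scaled counts in shControl, against 121, 125 and 121 in shMina53, 39.4% of the control (limma adjusted p = 9.1e-05), and Nes, Sox2, Fabp7 and Vim, markers of neural stem cells, had group means of 5334 or more in both groups. Of 12 neural stem and progenitor markers, 3 were called lower (Sox2, Vim and Hes5) and 2 higher (Slc1a3 and Nr2e1). This is 41.7%, against 8.26% of all genes tested and 13.3% of those with a mean of at least 50. A negative fold change was found in 9 of the 12 (median -0.11). The median exon length of the tested members was 7.13 kb against 3.34 kb for all tested genes, and long genes were low in shControl 3: at 8 kb the trend over protein-coding genes was -0.14 (log2) in that library and -0.02 to 0.05 in the other 5. At 1 kb the trend was -0.067, 0.129 and 0.480 in shControl, against -0.071, -0.156 and -0.280 in shMina53. The length trend was thus not confined to shControl 3 and lay partly along the groups.

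Of the 71 tested members 5 were called higher in shMina53 and 5 lower, 14.1% against 8.26% of all genes tested (3.79% higher and 4.47% lower). The higher members were the integrin subunit genes Itgav, Itgb5 and Itgb8 and the laminin alpha chain genes Lama1 and Lama2. The lower members were Itga4, Itga7 and the collagens Col2a1, Col5a1 and Col9a1. All 10 lie among the 42 members with a mean of at least 50 scaled counts over both groups. They are 23.8% of these, while 13.3% of all genes at that level were called. Lama2 (30.6 in shControl), Col2a1 (22.5 in shMina53) and Col9a1 (46.3 in shMina53) were under 50 in the group where they were lower. Both shares thus depend in part on the changes themselves. The groups did not overlap in 25 of the 71 members, 35.2% against 29.1% of all genes. The median log2 fold change of the members was 0.03, against 0.02 over all genes. By family, 3 of 38 collagens (7.89%), 2 of 11 laminins (18.2%) and 5 of 22 integrins (22.7%) were called. edgeR on the recovered reads called the same 10 genes in the same directions. Plain limma, without a variance trend or robust fit, called none of them and 32 genes in all. Without shMina53 3, 2 members were called higher and 4 lower; without shMina53 2, 3 were higher and 4 lower; and without shControl 1, 10 were higher and 5 lower.

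**Figure D1:**
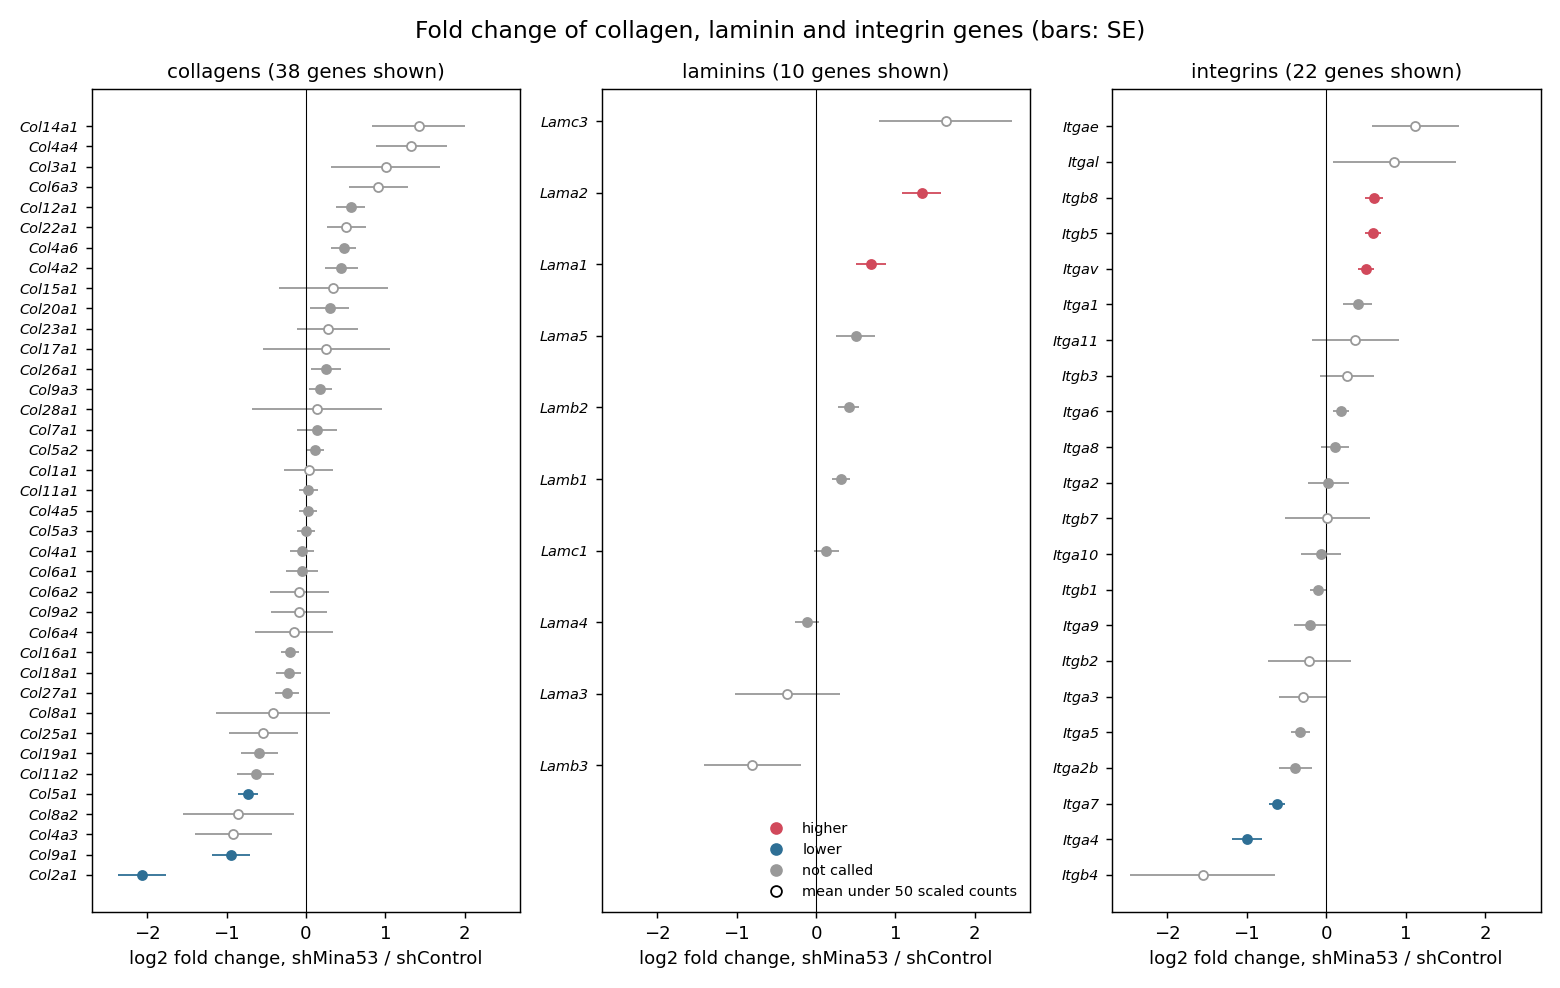
Log2 fold change of shMina53 over shControl for tested collagen, laminin and integrin genes, with bars of 1 SE from limma; red and blue points are called higher and lower, grey points are not called, and open points have a mean under 50 scaled counts. The 10 called genes are all filled points, with Col2a1 (-2.07) and Lama2 (1.33) at the ends.

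Among the fibril-forming collagens, Col2a1 and Col5a1 fell, and the abundant chains Col11a1, Col5a2 and Col5a3 were not called. Col2a1 (ENSMUSG00000022483; chromosome 15, 97975602 to 98004695, minus strand) encodes the main collagen of cartilage, which is also made in the early nervous system. It had 99.9, 95.3 and 81.7 scaled counts in shControl, against 28.0, 27.0 and 12.4 in shMina53. Every knockdown library was therefore far under every control library. The mean went from 92.3 ± 9.47 to 22.5 ± 8.73, a log2 fold change of -2.07 (SE 0.2999, limma adjusted p = 0.000635), and the call held whichever library was left out. Behind these values stand 293 reads in shControl and 66 in shMina53.

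Col5a1 (ENSMUSG00000026837; chromosome 2, 27886425 to 28039514, plus strand) encodes the alpha 1 chain of type V collagen, a minor fibrillar collagen that sets fibril diameter. Its libraries had 555, 668 and 525 scaled counts in shControl, against 379, 337 and 333 in shMina53, with no overlap. The log2 fold change was -0.73 (SE 0.130, limma adjusted p = 0.00286), and this call also held without any 1 library. The chains it assembles with did not follow: Col5a2 had 759.9 ± 18.9 and 824 ± 67.9 scaled counts (0.11, adjusted p = 0.59), and Col5a3 had 596 ± 33.9 and 597 ± 20.0 (0.00249, adjusted p = 0.992). The ratio of Col5a1 to Col5a2 within a library, which does not depend on scaling, was 0.75, 0.859 and 0.689 in shControl and 0.456, 0.448 and 0.375 in shMina53. Col11a1, a fibrillar chain that shares trimers with Col2a1 and with type V chains, had 1819 ± 279 and 1841 ± 84.6 scaled counts (0.03, adjusted p = 0.918), but -0.14 with the length trend removed and -0.10 without shControl 3. Its relative Col11a2 had 73.5, 74.3 and 63.9 scaled counts in shControl, against 48.3, 50.9 and 37.3 in shMina53, without overlap, and was not called (-0.63, adjusted p = 0.103).

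Of the collagens that attach to the surface of fibrils, Col9a1 (ENSMUSG00000026147; chromosome 1, 24177610 to 24252684, plus strand) was called. It had 93.3, 70.5 and 106 scaled counts in shControl, against 47.4, 36.3 and 55.3 in shMina53. The groups did not overlap, and the log2 fold change was -0.94 (SE 0.241, limma adjusted p = 0.0237), but the call was lost without any 1 of the 3 shMina53 libraries (adjusted p up to 0.131). The 3 chains of type IX collagen did not move alike. Col9a3 had 272 ± 12.1 and 312 ± 54.3 scaled counts (0.18, adjusted p = 0.492), and Col9a2, with fewer reads, had 24.0 ± 5.73 and 23.2 ± 9.61. Col12a1, a long collagen of the same class, had 712, 555 and 401 scaled counts in shControl, against 762, 942 and 714 in shMina53. Its groups lay side by side without overlap, and it was not called (0.56, adjusted p = 0.0714). It was called without shControl 1 or shControl 3, with DESeq2, and with both the length trend removed and the replicate number as a block.

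Type IV collagen, the network of the basement membrane, had no called member among its 6 chains, where 8.26% of all genes tested were called. Per kilobase of exons, the level of Col4a5 was the highest of all collagens, with 259.6 scaled counts per kb in shControl and 263 in shMina53, and its fold change was 0.03 (adjusted p = 0.922). Col4a6, the chain that pairs with it, had 362, 334 and 236 scaled counts in shControl, against 377, 468 and 437 in shMina53. All 3 knockdown libraries were above the controls, the highest control by little, and the gene was not called (0.48, adjusted p = 0.0736). Among the alternatives it was called without shControl 1 and with both the length trend removed and the replicate number as a block. The broadly expressed chains Col4a1 and Col4a2 had 329.8 ± 66.3 and 315 ± 24.8 scaled counts, and 151 ± 51.3 and 197 ± 4.80, and neither was called (adjusted p = 0.89 and 0.208).

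The genes of type IV collagen lie in head-to-head pairs that are read in opposite directions from nearby starts. In GENCODE M21 the starts of Col4a1 and Col4a2 are 21 bases apart on chromosome 8 and their first exons share 22 bases, those of Col4a4 and Col4a3 are 72 bases apart on chromosome 1, and those of Col4a6 and Col4a5 are 1309 bases apart on chromosome X. The fold change of Col4a1 was smaller than its SE (-0.05, SE 0.154) and turned positive without shControl 2 (0.085) or shMina53 3 (0.014). That of Col4a2 was 0.45, and 0.17 without shControl 3. The ratio of Col4a1 to Col4a2 was 2.20, 1.95 and 2.65 in shControl and 1.68, 1.60 and 1.51 in shMina53, without overlap. Col4a4 and Col4a3 had fold changes of opposite sign, on few reads. Col4a4 had 18 reads in shControl and 46 in shMina53, a ratio of 2.81 (95% counting interval 1.60 to 5.16), and Col4a3 had 31 and 14, a ratio of 0.497 (0.244 to 0.963). These intervals are exact, conditional on the sum, and cover counting error only; neither gene was called by limma (adjusted p = 0.0774 and 0.267).

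The collagens of connective tissue were low. Col1a2 had 2 reads in shControl and 3 in shMina53, and Col3a1 had 10 and 22 reads, while Col1a1 had 30.2 ± 3.94 and 31.9 ± 10.1 scaled counts. Type VI collagen, a filament collagen, had 4 measured chains, none of them called: Col6a1 had 129.6 ± 15.7 and 127 ± 33.0 scaled counts, Col6a2 40.0 ± 17.8 and 38.4 ± 20.5. The abundant Col16a1, which attaches to fibrils, had 1299 ± 140 and 1125 ± 76.5 (-0.20, adjusted p = 0.298). Of the tested collagens not yet named, Col19a1 had the smallest adjusted p (0.129), with 103.7 ± 29.2 and 66.9 ± 8.18 scaled counts, and was called without shControl 3. Col6a3 was at 23.0 ± 15.2 and 39.0 ± 4.53 (adjusted p = 0.145) and was called without shControl 1.

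**Figure D2:**
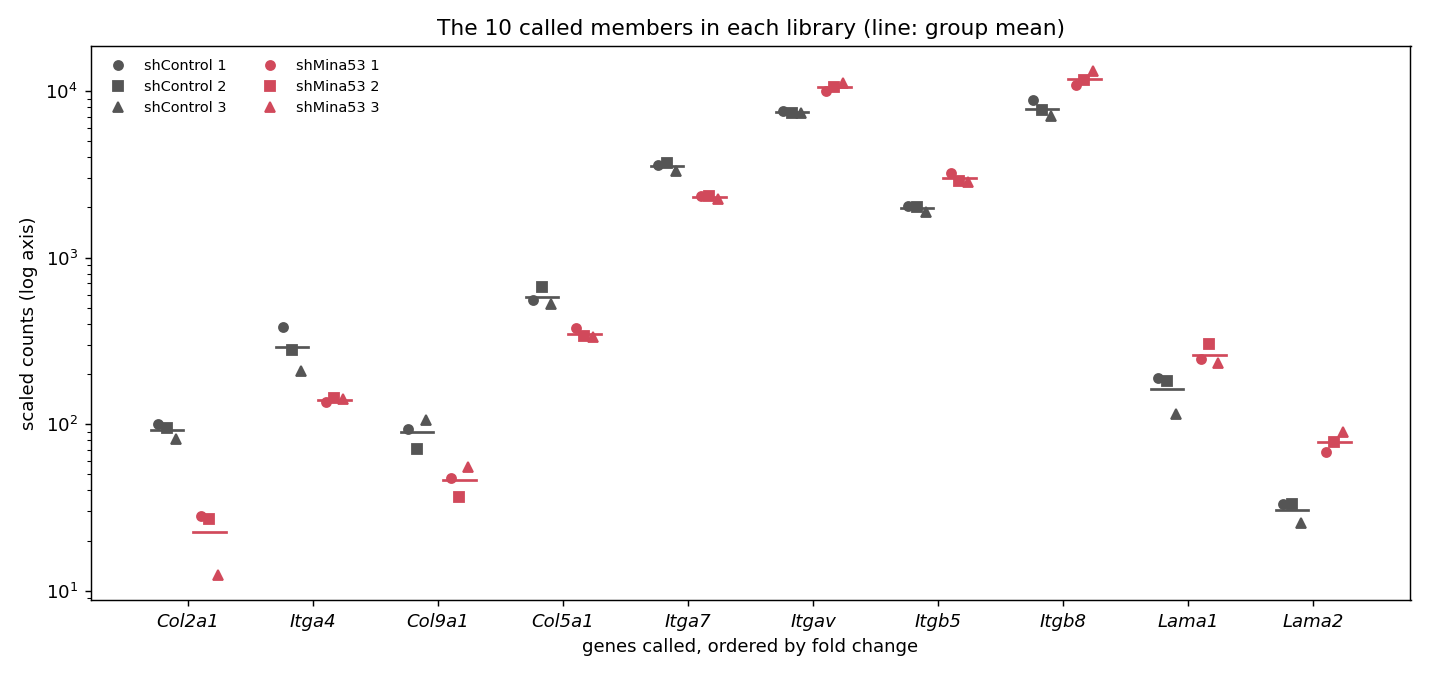
Scaled counts (log axis) of the 10 called genes in each of the 6 libraries, shControl in grey and shMina53 in red, with a line at each group mean. In every gene the shControl and shMina53 libraries are apart; those of Col2a1 are at 81.7 to 99.9 and 12.4 to 28.0.

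Of the 5 laminin alpha chains 2 rose, and no laminin was called lower. Over all genes tested 3.79% were called higher and 4.47% lower, and 4 of the 11 laminins had a negative fold change. Lama2 (ENSMUSG00000019899; chromosome 10, 26980036 to 27619758, minus strand) encodes the alpha chain of the laminins of muscle and of brain blood vessels, whose loss causes congenital muscular dystrophy. It had 33.0, 33.4 and 25.4 scaled counts in shControl, against 67.7, 77.8 and 89.2 in shMina53, so that the lowest knockdown library was well above the highest control. The log2 fold change was 1.33 (SE 0.246, limma adjusted p = 0.0036), on 97 and 224 reads, and the call held without any 1 library. Its level stayed low per length, at 1.87 scaled counts per kb in shControl and 4.79 in shMina53.

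Lama1 (ENSMUSG00000032796; chromosome 17, 67697259 to 67822647, plus strand) encodes the alpha chain of the earliest embryonic laminin. Its libraries had 189.5, 182 and 116 scaled counts in shControl, against 245, 301 and 232 in shMina53. The groups did not overlap, with shControl 3 the lowest of all. The log2 fold change was 0.70 (SE 0.188, limma adjusted p = 0.0309). The call was lost without shControl 2 or without any 1 shMina53 library (adjusted p up to 0.169).

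Lama5, the alpha chain of most epithelial and vascular basement membranes, had the highest level per length of the alpha chains, at 270.3 scaled counts per kb in shControl and 366 in shMina53. It had 3907, 3427 and 1900.4 scaled counts in shControl, against 4191, 4544 and 3774 in shMina53. Here the groups overlapped, since shControl 1 lay above shMina53 3, and shControl 3 was far under the rest. The gene was not called (0.50, adjusted p = 0.274), and without shControl 3 its fold change was 0.18. Lama4, of vessel walls, had 356 ± 60.0 and 327 ± 35.9 (-0.11, adjusted p = 0.702).

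The beta chains Lamb1 and Lamb2 were higher in every knockdown library than in any control, but were not called. Lamb1, the embryonic beta chain, had 1040 ± 91.0 and 1290.2 ± 93.7 scaled counts (0.31, adjusted p = 0.0979). Lamb2, the beta chain of mature vessels and synapses, had 1133, 1343 and 904 in shControl and 1507, 1447 and 1486 in shMina53 (0.41, adjusted p = 0.0601). It was called without shControl 1 or shControl 2, with DESeq2, with no filter and with the length trend removed (adjusted p = 0.0341), and thus stood just outside the threshold. Lamc1, the gamma chain of nearly all laminins, had 5069, 4407 and 3028 in shControl and 4483, 4734 and 4186 in shMina53, with overlap (0.13, adjusted p = 0.66), and a fold change of -0.08 without shControl 3. Lama3 and Lamb3, chains found in epithelia, had group means of 4.05 to 10.7 scaled counts, and neither was called. For Lamc3, 9 reads were found in shMina53, in 2 of its 3 libraries, and 0 in shControl. Set against the 3 reads that a count of 0 over the group allows, this is at least 3.30-fold higher, while the exact 95% counting interval of the ratio starts at 2.17, and the gene was not called (adjusted p = 0.251).

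The laminins were low together in shControl 3. The median deviation of the 7 laminins with a mean of at least 50 from their own mean was -0.51 (log2) in shControl 3, -0.09 and -0.03 in the other controls and 0.11 to 0.27 in shMina53. Over the 11 laminins the median fold change was 0.31 (0.02 over all genes). It was 0.18 without shControl 3 (-0.002 over all genes) and 0.19 with the length trend removed (0.08 over all genes). Ratios between chains within a library put the alpha chain against the gamma chain: Lama5 over Lamc1 was 0.771, 0.778 and 0.628 in shControl and 0.935, 0.96 and 0.902 in shMina53, without overlap. The ratio of Lamb1 to Lamc1 overlapped between groups, with 0.258 ± 0.0485 and 0.289 ± 0.0142. That of Lamb2 to Lamc1 was 0.2236, 0.3048 and 0.2985 in shControl and 0.3362, 0.3056 and 0.3551 in shMina53, apart by little.

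**Figure D3:**
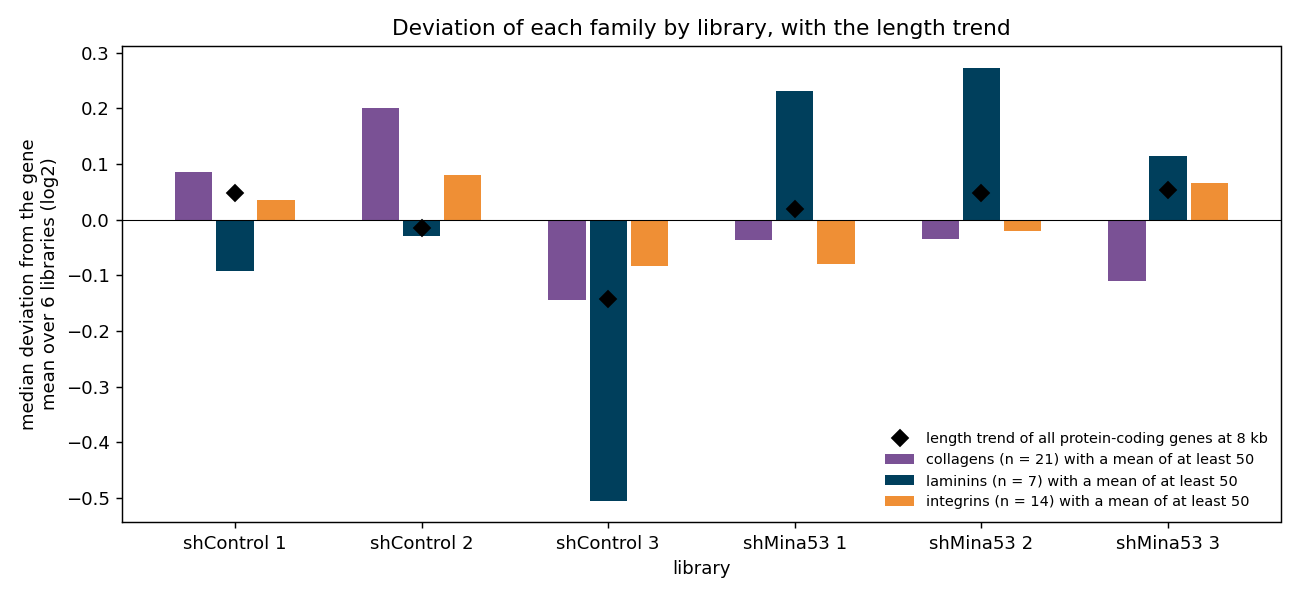
Median deviation (log2) of collagens, laminins and integrins with a mean of at least 50 from each gene's mean over the 6 libraries, by library; black diamonds give the length trend of protein-coding genes (same minimum mean), read at an exon length of 8 kb. Laminins were lowest in shControl 3 (-0.51), where the length trend was also lowest (-0.14).

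Turning to the receptors, the integrins divided by subunit: the alpha-v gene and its partners Itgb5 and Itgb8 rose, while Itga4 and Itga7 fell and Itgb1 was not called. Itgav (ENSMUSG00000027087; chromosome 2, 83724397 to 83806916, plus strand) encodes the alpha subunit shared by the receptors of vitronectin and latent TGF-beta. It had 7584, 7423 and 7372 scaled counts in shControl, against 9975, 10589 and 11149 in shMina53. The controls lay close together and every knockdown library stood above them, and the log2 fold change was 0.50 (SE 0.102, limma adjusted p = 0.00628). Without shMina53 2 or shMina53 3 the gene was not called (adjusted p up to 0.0596).

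Itgb8 (ENSMUSG00000025321; chromosome 12, 119158022 to 119238802, minus strand) encodes a beta subunit that pairs with alpha-v alone and that activates latent TGF-beta, known in neural progenitors and astrocytes for its role in brain vessel growth. Its libraries had 8811, 7646 and 7076 scaled counts in shControl, against 10804, 11664 and 13165 in shMina53. The groups were apart, and the log2 fold change was 0.60 (SE 0.116, limma adjusted p = 0.00471), with the call lost without shMina53 3 (adjusted p = 0.0579). Itgb5 (ENSMUSG00000022817; chromosome 16, 33829665 to 33949338, plus strand), whose product pairs with alpha-v to bind vitronectin, had 2034, 2022 and 1891 in shControl and 3239.6, 2893 and 2837 in shMina53. It was higher in every knockdown library, at 0.59 (SE 0.105, limma adjusted p = 0.00286), and stayed called whichever library was left out. Another alpha-v partner, Itgb3 of platelets and bone, was low and not called, at 21.4 ± 5.36 and 26.0 ± 7.00.

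Itgb1, the beta subunit of most matrix receptors, had the highest level per length of all members, at 3001 scaled counts per kb in shControl and 2782 in shMina53. It had 12278, 11826 and 12631 scaled counts in shControl, against 10888, 11686 and 11487 in shMina53. Each knockdown library was slightly under each control, and the gene was not called (-0.11, SE 0.101, adjusted p = 0.557). Next in order per length among shControl integrins came Itgb8 (709), Itgav (694), Itgb5 (558), Itga7 (438), Itga6 (411) and Itga5 (183 scaled counts per kb), where Itgb8 and Itgav, and Itga7 and Itga6, differed by less than their spread. In shMina53 the order was Itgb1, Itgb8 (1074), Itgav (984), Itgb5 (842), Itga6 (466), Itga7 (284.6) and Itga5 (146).

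Set against Itgb1 in the same library, the alpha-v group was larger in each knockdown library. These ratios are not corrected for the length trend, and Itgb8 and Itgav have longer exons than Itgb1 (11060 and 10744 against 4081 bases). With the length trend removed, the log2 fold change was 0.46 for Itgb8, 0.37 for Itgav, 0.67 for Itgb5 and -0.07 for Itgb1. The ratio of Itgb8 to Itgb1 in scaled counts was 0.718, 0.647 and 0.56 in shControl and 0.992, 0.998 and 1.15 in shMina53. That of Itgav to Itgb1 was 0.61 ± 0.0231 and 0.931 ± 0.0346, and that of Itgb5 to Itgb1 0.162 ± 0.0111 and 0.264 ± 0.029. In all, 19 such ratios were computed, chosen with the values known, and in 16 of them the groups did not overlap. Many set a called member against a gene that was not called, so this count partly restates the calls. Ratios of other gene pairs were not computed, so no share stands beside the count. The ratios describe unequal change within a library and carry no test.

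**Figure D4:**
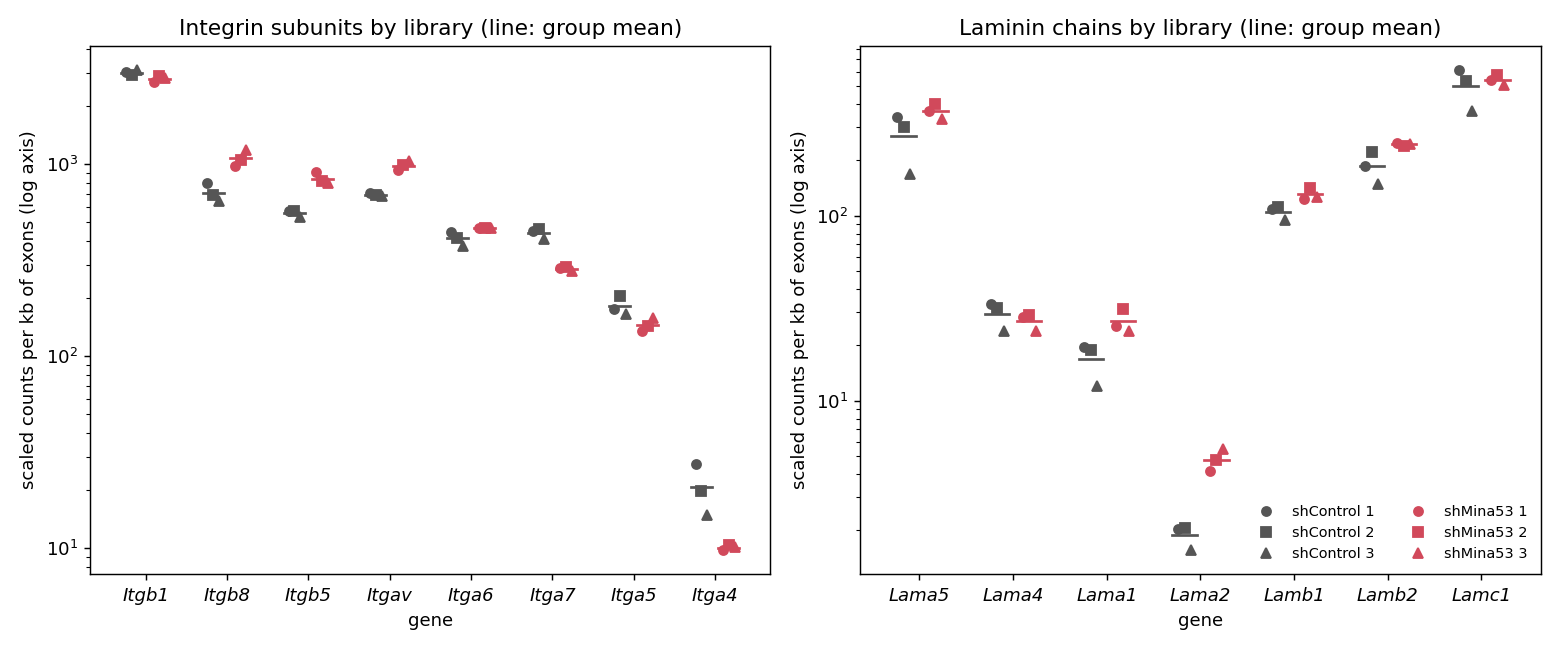
Scaled counts per kb of exons (log axis) of 8 integrin and 7 laminin genes in each library, with a line at each group mean. Itgb1 is highest at about 3001 and 2782 per kb, the alpha-v group (Itgb8, Itgb5, Itgav) is higher in shMina53, and shControl 3 is the lowest library for all 7 laminins except Lama4, where it lies beside shMina53 3.

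Itga6 and Itga7 encode laminin-binding alpha subunits that pair with the product of Itgb1. Itga3, which encodes another, was at 6.57 scaled counts per kb in shControl and 5.17 in shMina53. Itga7 (ENSMUSG00000025348; chromosome 10, 128933818 to 128958282, plus strand) had 3611, 3722 and 3294 scaled counts in shControl, against 2329.9, 2344 and 2235 in shMina53. All knockdown libraries lay within a narrow range under the controls, and the log2 fold change was -0.62 (SE 0.103, limma adjusted p = 0.00181), held without any 1 library. Itga6, a surface marker used to sort neural stem cells, had 4021, 3733 and 3369.6 in shControl and 4211, 4219 and 4196 in shMina53. The groups lay side by side and the gene was not called (0.19, adjusted p = 0.302). The ratio of Itga7 to Itga6 was 0.898, 0.997 and 0.978 in shControl and 0.553, 0.555 and 0.533 in shMina53, so the RNAs of these subunits changed unequally.

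Of the fibronectin receptor subunits Itga4 and Itga5, the first fell. Itga4 (ENSMUSG00000027009; chromosome 2, 79255426 to 79333123, plus strand), whose product binds fibronectin and VCAM1, had 383, 278 and 209 scaled counts in shControl, against 136, 144 and 141 in shMina53. The controls were widely spread and the knockdown libraries were not, with a log2 fold change of -0.995 (SE 0.188, limma adjusted p = 0.00415), called without any 1 library. Itga5, the classical fibronectin receptor subunit, had 872, 1012 and 818 in shControl and 663, 709.9 and 782 in shMina53. It was lower in each knockdown library and not called (-0.32, adjusted p = 0.107), but was called without shControl 3 and with both the length trend removed and the replicate number as a block. Among collagen-binding subunits, Itga1 had 102 ± 15.8 and 133 ± 9.61 scaled counts (0.40, adjusted p = 0.198), and Itga2, Itga10 and Itga11 had group means of 6.31 to 59.3. The leukocyte integrins Itgal, Itgae, Itgb2 and Itgb7 had group means of 0.629 to 16.7, and none was called.

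**Figure D5:**
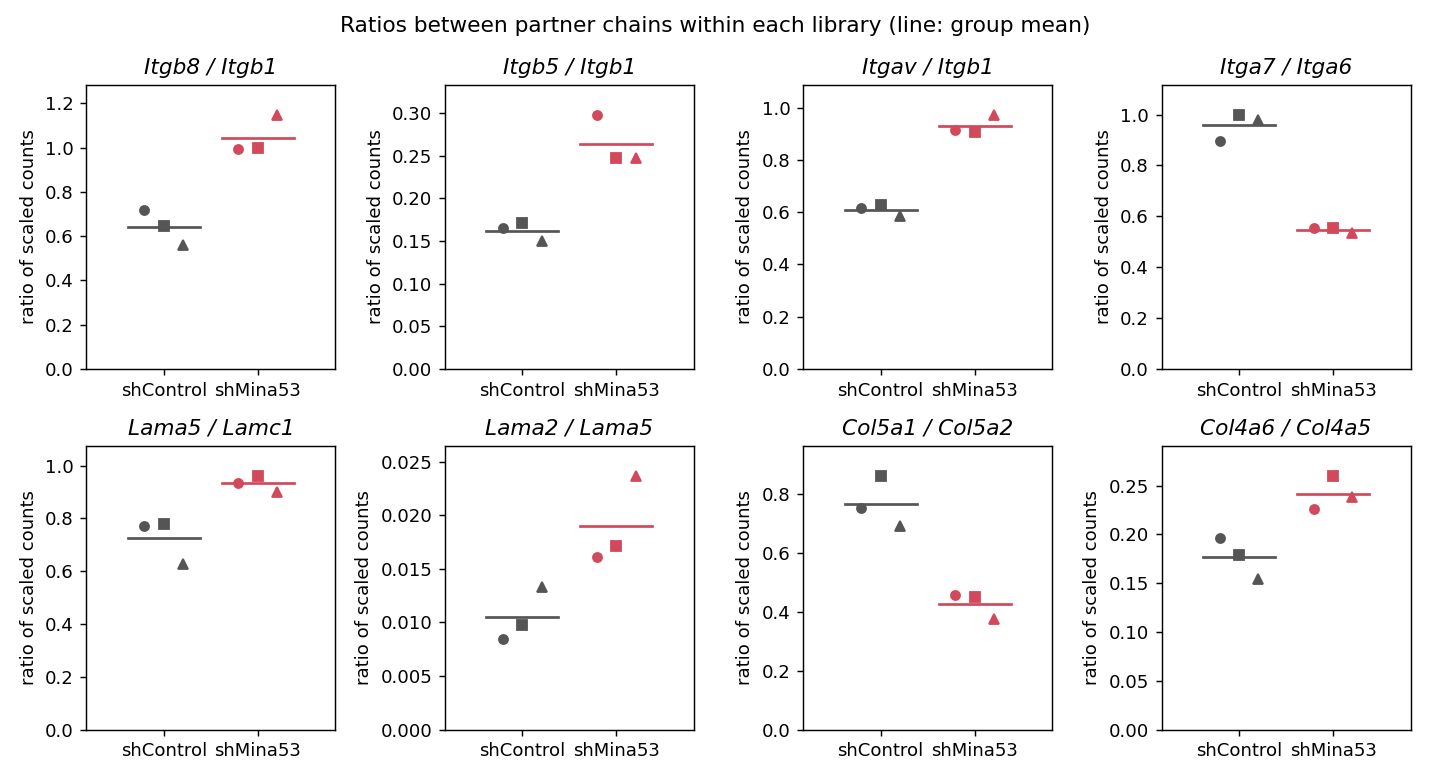
Ratio of scaled counts between chains of the same family in each library, with a line at each group mean. Not all pairs are partners: Itgb8 and Itgb5 against Itgb1, Itga7 against Itga6 and Lama2 against Lama5 are alternative chains of the same kind. Itgb8, Itgb5 and Itgav over Itgb1 are higher in every shMina53 library, Itga7 over Itga6 lower (0.553, 0.555 and 0.533), and Col5a1 over Col5a2 lower.

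Promoters of called members are shown for the alpha-v pair that rose together, Itgav and Itgb5, and for Itga4 and Col5a1, which fell. Each is the 250 bases before the RefSeq start (GRCm38.p6), 5′ to 3′ on the strand of the gene, and none overlaps an annotated exon of GENCODE M21. Capitals mark GGGCGG or its reverse complement CCGCCC, the core of the GC box.
Itgav, chr2:83724147-83724396, plus strand: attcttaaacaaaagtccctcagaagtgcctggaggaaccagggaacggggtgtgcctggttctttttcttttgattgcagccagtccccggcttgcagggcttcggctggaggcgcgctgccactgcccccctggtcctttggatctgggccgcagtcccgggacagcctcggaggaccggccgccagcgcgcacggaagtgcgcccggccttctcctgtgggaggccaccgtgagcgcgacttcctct
Itgb5, chr16:33829415-33829664, plus strand: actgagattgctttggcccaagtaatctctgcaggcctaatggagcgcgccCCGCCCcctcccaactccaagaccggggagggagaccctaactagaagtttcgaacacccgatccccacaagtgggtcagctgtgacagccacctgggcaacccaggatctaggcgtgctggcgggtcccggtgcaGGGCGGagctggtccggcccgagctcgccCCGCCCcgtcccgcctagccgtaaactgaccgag
Itga4, chr2:79255176-79255425, plus strand: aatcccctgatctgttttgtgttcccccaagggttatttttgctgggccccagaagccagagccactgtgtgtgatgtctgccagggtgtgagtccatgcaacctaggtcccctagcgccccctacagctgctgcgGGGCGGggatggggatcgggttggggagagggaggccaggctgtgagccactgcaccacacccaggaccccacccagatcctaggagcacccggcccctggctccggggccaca
Col5a1, chr2:27886175-27886424, plus strand: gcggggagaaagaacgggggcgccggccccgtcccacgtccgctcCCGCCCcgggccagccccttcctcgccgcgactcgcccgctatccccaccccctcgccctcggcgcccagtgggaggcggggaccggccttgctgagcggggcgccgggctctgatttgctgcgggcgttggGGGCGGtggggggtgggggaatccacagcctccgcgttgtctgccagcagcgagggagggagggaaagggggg
Itgb5 held 3 GC boxes, Col5a1 2, Itga4 1 and Itgav none, and none of these 4 held TATAAA or CCAAT on either strand. Of the other called members in the table, Itgb8, Lama2 and Col9a1 held no GC box or TATAAA, while the promoter of Itgb8 and 1 of the 2 of Col9a1 held CCAAT. Of 57 promoters of 52 members in the RefSeq table, 28 (49.1%) held the GC box, against 32.7% of all 32851 promoters of this length; CCAAT was in 28.1% and 33.9%, and TATAAA in 8.77% and 12.4%. A match is a description of the letters and not of binding.

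Other matrix genes were taken as 6 lists. Their shares of called genes stand beside 8.26% of all genes and 13.3% of those with a mean of at least 50: 10% of the collagen synthesis list and 11.5% of the integrin ligands lie near these, and the adhesion complex had 17.2%, the proteases and inhibitors 19.2%, the other basement membrane proteins 29.4% and the other receptors 30.8%. Of the basement membrane proteins besides laminins and type IV collagen, 5 of 17 were called higher and 0 lower by limma (at an unadjusted p under 0.05, 2 were lower; edgeR called 5 in all), and the median was 0.02. They were Fras1, of the membrane under epithelia (108 ± 18.7 to 206 ± 16.3), Nid2 (221 ± 26.7 to 374 ± 61.1) and Nid1 (700.4 ± 135 to 1003 ± 52.3), the nidogens that join laminin to type IV collagen, Ntn4, a laminin-related netrin (1093 ± 60.1 to 1503 ± 67.4), and Fbln2, a fibulin (2070.1 ± 303 to 2957 ± 355 scaled counts). Without shControl 2, shMina53 1 or shMina53 2 the list had 3, 3 or 2 called genes. Of 30 enzymes and helpers of collagen synthesis, 3 were called lower and 0 higher (1 higher at an unadjusted p under 0.05; edgeR called 4), with a median of -0.05. P4ha1 and P4ha2, the catalytic subunits of the prolyl hydroxylase that stabilises the triple helix, fell from 4712 ± 432 to 3092 ± 242 and from 853 ± 82.8 to 508 ± 29.0, and Sparc, a collagen-binding protein, from 4982 ± 355 to 3649 ± 128. Without shControl 1, 6 of this list were called.

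Among 26 tested integrin ligands other than collagens and laminins, 3 were called lower and 0 higher (5 higher at an unadjusted p under 0.05; edgeR called 3), with a median of -0.00264. These were Tnc, the tenascin of the stem cell niche (14035 ± 3260 to 8401 ± 206), Spp1 or osteopontin (113 ± 30.0 to 60.3 ± 12.6) and Nov, a matricellular protein (66.2 ± 3.66 to 34.8 ± 7.78 scaled counts). The number called was 6 without shControl 1, 1 without shControl 2, 7 without shControl 3, 1 without shMina53 1 and 0 without shMina53 3. Of 29 genes of the adhesion complex inside the cell, 2 were called higher and 3 lower (median -0.02). Lims2, an adaptor of the integrin-linked kinase, fell from 385 ± 52.3 to 118 ± 37.5, Zyx, which binds actin at adhesions, from 1542 ± 27.4 to 1065 ± 112, and Bcar1, a docking protein, from 1258 ± 55.1 to 957 ± 51.6. Nedd9, a relative of Bcar1, rose from 254.5 ± 10.6 to 456 ± 13.5, and Parva, which joins the integrin-linked kinase to actin, from 1024 ± 57.1 to 1312 ± 43.0. Without shControl 2, shMina53 1 or shMina53 2 there were 3 called genes in this list, and 2 without shMina53 3.

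Of 13 other receptors of collagen, laminin or hyaluronan, 3 were called higher and 1 lower (median 0.27): Cd44 fell from 2382 ± 174 to 1518 ± 213, while the laminin receptor dystroglycan, Dag1, rose from 5736 ± 1077 to 7803 ± 518, the receptor Adgrg6 from 1546 ± 280.4 to 2099 ± 156 and the leukocyte collagen receptor Lair1 from 10.7 ± 0.627 to 26.4 ± 5.75 scaled counts. Without shControl 2 or any 1 shMina53 library, 1 gene of this list was called. Of 26 proteases and inhibitors 2 were called higher and 3 lower (median 0.06). The sheddase Adam10 rose from 2279 ± 182 to 3087 ± 91.2 and the inhibitor Timp4 from 1556 ± 179.8 to 2720 ± 86.5, while Adam9 fell from 3423 ± 139 to 2682 ± 41.7, Adamts5, a proteoglycan-cleaving enzyme, from 242 ± 17.5 to 146 ± 25.9 and the inhibitor Timp1 from 129 ± 18.1 to 81.5 ± 7.64 scaled counts. Without shControl 2 or shMina53 2, 1 gene of this list was called, and 2 without shMina53 1 or shMina53 3.

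Cells other than neural stem cells that make matrix were looked for with markers that are not members. The summed level of 11 fibroblast and mural markers was 766 to 898 scaled counts in shControl and 1080 to 1275 in shMina53, without overlap, and all 10 tested had a positive fold change (median 0.82), 1 of them called. Most of that sum came from Foxc1 (506 to 572 against 719 to 751) and Acta2 (193 to 276 against 286 to 454), while Dcn, Lum, Ogn and Pdgfrb stood at 0 to 7.73 in every library. The 8 endothelial markers summed to 132 to 192 and 188 to 200.3, with Cldn5, Emcn and Pecam1 at 0 to 2.90. Most of this sum came from the other markers of the list, 2 of which had a mean of at least 50. Of the 6 tested, 4 had a positive and 2 a negative fold change (-1.51 to 0.63), and 0 were called. Over 4 microglial markers the sums were 190.5 to 249.7 and 201 to 246, nearly all from the lysosomal gene Cd68, and Csf1r and P2ry12 were at 0 to 4.77. Among markers of the neural lineages, 1 of 6 neuronal genes was called higher (Map2) and 1 lower (Tubb3). Of these 6, 5 had a negative fold change (median -0.34). Their sum went the other way, with 10410 to 12994 in shControl and 14004 to 14827 in shMina53. Of 6 astrocyte genes 2 were called higher (Gja1 and Aqp4), and 5 had a positive fold change (median 0.35). Of 5 oligodendrocyte lineage genes 3 were called lower (Sox10, Pdgfra and Mbp), with a median of -0.79. The called shares were thus 33.3% of the neuronal, 33.3% of the astrocyte and 60% of the oligodendrocyte lineage genes, against 8.26% of all genes tested. Ependymal markers (6) summed to 371 to 397 and 558 to 653, with Foxj1 called higher. Their part in the changes of Lama1, Lama2 and the integrins was not tested.

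Of the 10 called members, Itgav, Col5a1 and Itga4 share exon bases with genes on the other strand, each at no more than 0.00702 times the mean of the member. The other 7 share none with a gene of the table, and the lists were not searched for shared exons.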

How the data were processed

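RNA of mouse neural stem cells was sequenced in 6 libraries, 3 per group, grouped by the sample titles. The deposited table gives a signal per gene and library, which from the values is a read count that the authors divided by 1 factor per library; all values were whole reads within a tolerance of 0.01, so the reads could be recovered (100% of values). The authors also deposited group means and a p-value per gene without naming its test, which were not used. Per the submitters' processing notes the tools were DESeq2, edgeR, StringTie 1.3.4d, UMI-tools, HISAT2 2.0.4 and CASAVA, with the build mm10, without roles; strand use in counting is not given in the sources used here.

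Members were found by gene name. The groups were compared with limma-trend (limma 3.58.1, R 4.3.3; trend and robust) on log2 of scaled counts plus 1, over 21500 genes with a mean of at least 1, two-sided, without covariates, Benjamini-Hochberg adjusted over all genes, threshold 0.05. edgeR 4.0.16 and DESeq2 1.42.0 on recovered reads were alternatives, as were other pseudocounts, filters, scalings, a length correction (lowess, span 0.3, on 11382 genes that code for protein, at a mean of 50 or more), a replicate block and each left-out library. The tests were also run on simulated data. There each gene was drawn independently, without the length trend shared by genes of a library, so that run cannot show how many calls here are false. Positions and exon lengths are from GENCODE M21 (GRCm38, the mm10 assembly), promoters from RefSeq (GRCm38.p6). Members and lists were chosen with earlier results of these data known. Named genes are every called member, the 5 with the highest mean of each family, partner chains, and up to 4 called genes per pathway list with the smallest adjusted p; other genes named were chosen after their values were seen. 1 laminin that was tested and counted is not reported here by name.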

Additional observations from a re-analysis of the deposited data

How the results depend on the processing

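The number of genes called, 1776, was 32 without the trend and robust steps of limma, 1178 with the replicate number as a block, 2795 with this block and the length trend removed, and 497 to 2794 when 1 library was left out. The members called higher and lower, 5 and 5, were 0 and 0 without trend and robust steps, 9 and 9 with the block and the length trend removed, and 2 to 10 and 4 to 7 when 1 library was left out. Every other setting, the block alone included, called the same 10 members in the same direction; no filter, DESeq2 and the length trend removed added Lamb2, and DESeq2 also Col12a1. The replicate numbers were not taken to pair the samples, since same-numbered libraries deviated together with correlations of -0.145, 0.107 and 0.0198. Called members of the lists were 0 in each of the 6 lists without trend and robust steps. When 1 library was left out, 2 to 6 of the collagen enzymes were called, 2 to 7 of the basement membrane proteins, 0 to 7 of the integrin ligands, 2 to 7 of the adhesion complex, 1 to 4 of the other receptors and 1 to 7 of the proteases and inhibitors. With the block, 1 integrin ligand, 3 adhesion genes and 2 receptors were called; with the block and the length trend removed, 6 ligands and 8 proteases; and 8 proteases with no filter or with DESeq2. Among the 32 members recomputed under the alternatives, the fold change of 5 near 0 turned sign. With the length trend removed, with or without the block, Col11a1 was at -0.14, Col4a5 at -0.0280 and Col9a2 at 0.0238. When 1 library was left out, Col11a1 ranged from -0.101 to 0.117, Col4a5 from -0.0687 to 0.0775, Lamc1 from -0.0830 to 0.289, Col4a1 from -0.210 to 0.0850 and Col9a2 from -0.398 to 0.0894. Of the other members, Col5a3 (-0.0527), Col1a1 (-0.0135) and Itga2 (-0.0360) also turned with the length trend removed, and further members near 0 turned when 1 library was left out. Over 32 members and 17 alternatives, 487 values kept their direction and side of the threshold, 20 lost and 17 gained a call, and 16 turned. Left out of these are values without an adjusted p: Col4a3 with the filter at a mean of at least 10, edgeR and DESeq2, and Col4a4 with DESeq2. The cause of these changes was not tested.

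Of the 71 tested members 42 had a mean over both groups of at least 50 scaled counts, and no member under that level was called.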
